A study of Mus musculus with 6 samples.

Results

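The insulin-like growth factor (IGF) and growth hormone axis was followed across mammary epithelial cells (MECs) of wild-type and IL-21isoTg mice. The 10 genes are the ligand Igf1, the receptors Igf1r, Insr and Ghr, and the binding protein genes Igfbp2, Igfbp3, Igfbp4, Igfbp5, Igfbp6 and Igfbp7. They were taken by symbol from the 55487 genes of the count table, without use of any measured value, and each symbol matched 1 gene. RNA-seq had been performed on MECs of 3 wild-type and 3 IL-21isoTg mice, with 1 library per mouse. All were virgin BALB/c females aged 10 weeks, with estrous stages left mixed by design. The IL-21isoTg mice carried a transgene for an isoform of the cytokine IL-21, expressed specifically in T cells. MECs were enriched by depleting cells that bear CD45, CD31 or CD140a, so the preparation was not sorted for an epithelial marker. The comparison asks whether IL-21 isoform expression in T cells is accompanied by altered transcript levels of this growth factor axis in the mammary epithelium before tumours appear.

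Growth hormone acts through its receptor, GHR, on JAK2 and STAT5, and in the mammary gland it induces IGF1 mainly in stromal cells. IGF1 binds the receptor tyrosine kinase IGF1R, and also hybrids of IGF1R with the insulin receptor INSR, on neighbouring epithelium, where it drives ductal growth through IRS adaptors, PI3K and AKT. The IGF-binding proteins hold IGFs in the extracellular space and either restrain or deliver them. IGFBP5 is known in this tissue for its rise during involution, when the gland regresses after weaning.

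Il21 served as the check of the labels. Its counts were 0, 0 and 37 in wild-type mice 1, 2 and 3 and 795, 216 and 131 in IL-21isoTg mice 1, 2 and 3, so the genotypes did not overlap, although wild-type mouse 3 held some reads. Total counts ranged from 15902886 to 25719244 per mouse, with no detectable genotype difference (exact permutation test, two-sided, p = 0.7, where 3 against 3 mice cannot go below 0.1). Luminal epithelial markers were present. The keratin gene Krt8 was the most abundant of 12, at a mean of 2193 CPM in wild-type and 2337 CPM in IL-21isoTg mice. Together the 12 held 0.542% to 1.25% of the counts of a mouse. Here CPM is the count of a gene scaled to a common library size after TMM normalisation, which corrects for differences in library composition. Markers of other cells were also measured. Summed over 9 fibroblast markers, led by Col3a1, the level was 1989 to 3588 CPM in wild-type and 4473 to 5143 CPM in IL-21isoTg mice, without overlap. Of the 9 genes, 8 had a higher fitted level in IL-21isoTg mice. Taken singly, the genotypes separated for Col1a1, Col1a2, Col3a1 and Lum, and overlapped for Pdgfra, Dpt, Fap and Pi16. Dcn overlapped and went the other way, with means of 738 CPM in wild-type and 612 CPM in IL-21isoTg mice. Salivary gland genes, led by Bpifa2, held 4.93% to 22.6% of the counts in 5 mice and 40.5% in IL-21isoTg mouse 3, so this library stood apart from the rest. All 14 salivary gland genes tested had a higher fitted level in IL-21isoTg mice. Whether the RNA of the luminal markers came from mammary or salivary gland epithelium was not tested. The sum of 8 milk protein genes, led by Csn2, was 523 to 1733 CPM in wild-type and 8818 to 20366 CPM in IL-21isoTg mice, without overlap.

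Promoter sequences are shown for the 3 genes of the axis with the largest fitted variation between mice, Igfbp5, Igfbp6 and Ghr, so that the regulatory sequence beside each can be read. Each is up to 250 bases upstream of a RefSeq transcription start on the GRCm38.p6 reference (C57BL/6J, not BALB/c), written 5′ to 3′ on the gene's strand, with annotated exon bases left out. Capitals mark the TATA box letters TATAAA on either strand, wherever they fell in the window. A match was of letters alone, so it does not show a TATA box in use, nor does its absence show that there is none. The windows are chr1:72874885-72875115 (minus strand, Igfbp5), chr15:102143936-102144185 (plus strand, Igfbp6) and chr15:3581843-3582092 (minus strand, 1 of 2 Ghr starts listed).
Igfbp5: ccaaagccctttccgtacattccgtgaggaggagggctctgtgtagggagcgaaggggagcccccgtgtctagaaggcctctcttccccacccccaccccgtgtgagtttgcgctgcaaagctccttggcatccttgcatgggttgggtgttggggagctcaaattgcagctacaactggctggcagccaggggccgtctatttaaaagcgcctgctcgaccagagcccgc
Igfbp6: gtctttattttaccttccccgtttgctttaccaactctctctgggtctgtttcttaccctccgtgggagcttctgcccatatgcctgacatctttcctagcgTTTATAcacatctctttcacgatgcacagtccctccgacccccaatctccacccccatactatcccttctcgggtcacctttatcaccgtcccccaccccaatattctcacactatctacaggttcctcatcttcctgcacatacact
Ghr: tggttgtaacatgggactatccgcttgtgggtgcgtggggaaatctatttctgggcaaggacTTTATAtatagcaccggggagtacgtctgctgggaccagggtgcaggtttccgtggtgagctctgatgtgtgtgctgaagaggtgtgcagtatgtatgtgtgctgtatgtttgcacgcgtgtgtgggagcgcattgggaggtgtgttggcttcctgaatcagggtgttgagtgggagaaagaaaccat
The letters occurred once, as their reverse complement, in the Igfbp6 window and once in this Ghr window, and they occurred in 12.4% of the 32851 RefSeq promoter windows of mouse genes. The Igfbp5 window held no match to TATAAA. The letters TTCNNNGAA, a core to which STAT factors can bind, read the same on both strands and were found in none of the 250-base windows of the axis genes, against 7.02% of all windows. Over the 11 windows listed for the axis genes, TATAAA occurred in 3, those of Igfbp4, Igfbp6 and 1 of the 2 Ghr starts. GGGCGG, the core bound by SP1, occurred in 4 of the 11, those of Igf1r, Igfbp7, the other Ghr start and 1 of the 2 Igfbp2 starts, against 32.7% of all windows, and in none of the 3 shown. RefSeq windows were found for 9 of the 10 genes. The RefSeq start of Igfbp6 lies upstream of the start that GENCODE M21 gives for this gene.

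Igfbp5, whose product binds IGFs and extracellular matrix, was the most abundant transcript of the axis in every mouse. Levels of different genes were compared only as CPM per kb of exon, averaged over the 6 mice. On this scale Igfbp5 stood at 343, followed by Igfbp7 at 113, Igfbp6 at 45.9, Igfbp3 at 28.8, Igfbp2 at 26.0 and Igfbp4 at 22.0. The receptors lay below the binding proteins, with Ghr at 6.57, Insr at 5.32 and Igf1r at 3.56 CPM per kb, and Igf1 was lowest at 0.974. Ranges over the 6 mice were separate for only 2 pairs of neighbours in this order, Igfbp4 above Ghr and Igf1r above Igf1. Within a mouse, Igfbp5 lay above Igfbp7 in 6 of 6 mice and Insr lay above Igf1r in 6 of 6 mice. Igfbp6 lay above Igfbp3 in 5 of 6 mice, Igfbp3 above Igfbp2 in 5 and Igfbp2 above Igfbp4 in 4, so the order of these 4 genes was not the same in each mouse.

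The fitted level of each of the 10 genes was higher in IL-21isoTg mice, but none of the differences passed the test. The quasi-likelihood test of edgeR, adjusted by the Benjamini-Hochberg method, called 0 of the 10 genes and 0 (0%) of the 17165 genes tested. Il21, whose counts separated the genotypes, was also not called (log2 fold change 4.98, edgeR adjusted p = 0.757). The test called 0 of the 8 milk protein genes, whose median log2 fold change was 4.08. All 10 genes of the axis had passed the filter on low counts. The fitted log2 fold change of IL-21isoTg over wild-type mice was above 0 for all 10, between 0.049 and 0.93 with a median of 0.45, while 47.9% of all genes tested lay above 0 with a median of -0.019. Of the 10, 9 lay above 0 without IL-21isoTg mouse 3 and 8 with the salivary gland level as a covariate, an alternative chosen after seeing the data. The 10 genes were measured in the same 6 mice and are not replicates of each other. The edgeR adjusted p of the 10 genes lay between 0.809 and 0.977. At an unadjusted edgeR p under 0.05, 0 of the 10 stood out, against 5.82% of all genes. This count moved between 0 and 3 with the method. DESeq2 gave 3 (Ghr, Igfbp6 and Igfbp7) against 6.94% of all genes, and edgeR's likelihood ratio test gave 2 (Ghr and Igfbp6) against 5.89%. The salivary gland covariate gave 3 (Igfbp4, Igfbp6 and Igfbp7) against 5.01%, and leaving out IL-21isoTg mouse 3 gave 2 (Igfbp4 and Igfbp7) against 5.12%. At an adjusted p under 0.05, DESeq2 called 0 of the 10 and 0.473% of all genes, and limma-voom called 0 of the 10 and 0% of all genes. Igf1 was the 1 gene of the 10 whose genotypes did not overlap. Among all genes 12.1% did not overlap, and 5.54% did not overlap with IL-21isoTg mice higher, so 1 of 10 was near the background.

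**Figure D1:**
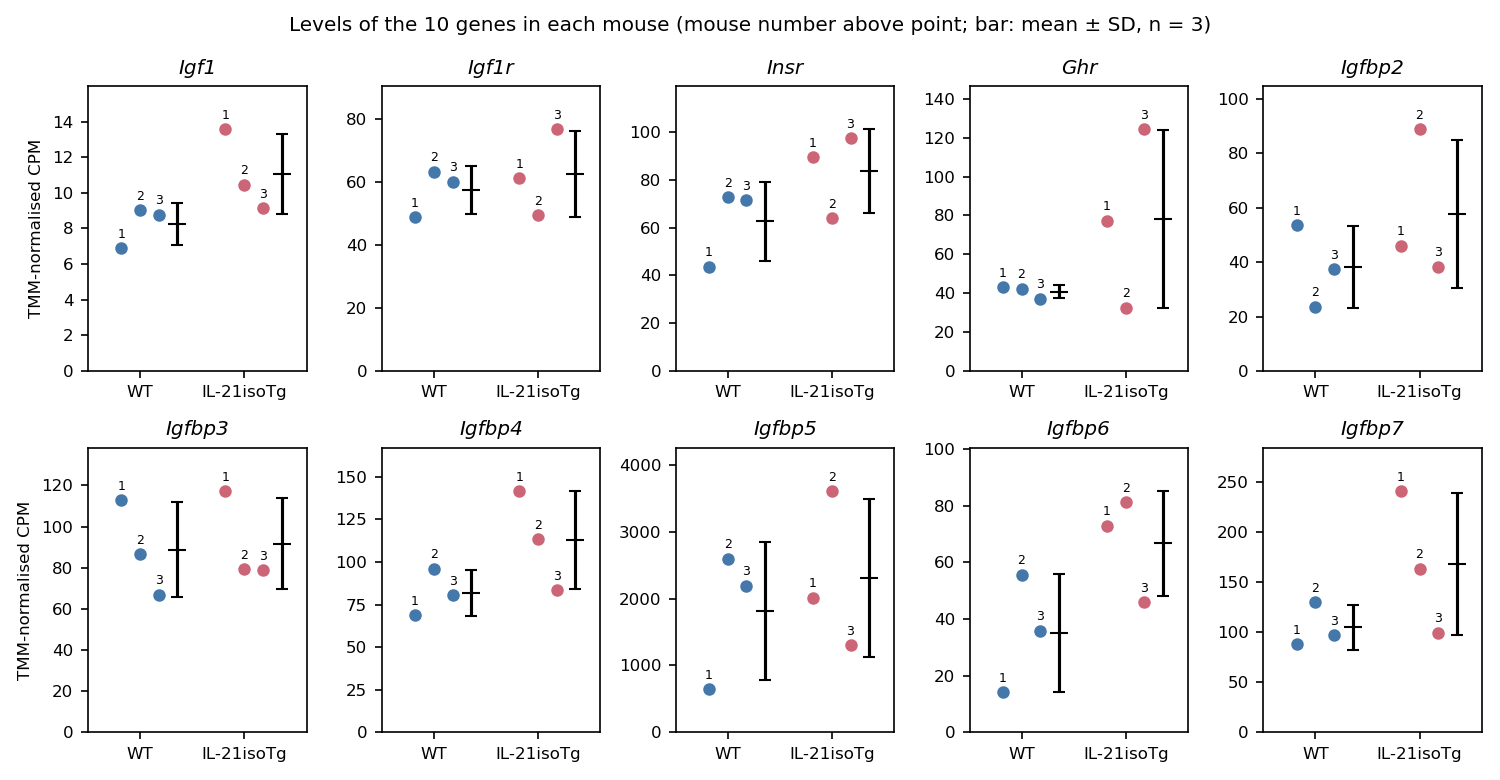
TMM-normalised CPM (y axis, linear from 0) of each of the 10 genes in 3 wild-type (blue) and 3 IL-21isoTg (red) mice, with the mouse number above each point and the mean ± SD of each genotype in black. Points of the 2 genotypes separate for Igf1 alone, and wild-type mouse 1 is the lowest point for 7 of the 10 genes.

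Gene positions are those of GENCODE M21 on GRCm38. Igf1 (chr10:87858265-87937042, plus strand), the ligand, was measured at 6.90, 9.03 and 8.77 CPM in wild-type mice 1, 2 and 3 and at 13.6, 10.5 and 9.14 CPM in IL-21isoTg mice 1, 2 and 3. Every IL-21isoTg mouse lay above every wild-type mouse, with IL-21isoTg mouse 3 only just above wild-type mouse 2. The means were 8.24 ± 1.16 and 11.1 ± 2.27 CPM (SD, n = 3 per genotype), a log2 fold change of 0.43 (SE 0.24, 95% interval -0.13 to 0.98) that did not pass the edgeR test (adjusted p = 0.809). The exact permutation test on log2 levels gave p = 0.1, the smallest that 3 against 3 mice allow. These levels rested on 98 to 326 reads, the fewest of the axis, and 98 reads carry a counting error of 10.1%. The fibroblast marker sum given above separated the genotypes in the same direction, although Dcn within it had a lower fitted level in IL-21isoTg mice. The part of fibroblasts in the Igf1 levels was not tested. In bulk RNA, more cells of a type and more RNA per cell cannot be told apart.

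Ghr (chr15:3317760-3583492, minus strand), the growth hormone receptor, had the largest fitted difference. Its levels were 43.2, 42.2 and 37.1 CPM in wild-type mice 1, 2 and 3 and 77.3, 32.5 and 124 CPM in IL-21isoTg mice 1, 2 and 3. The wild-type mice lay close together, whereas the IL-21isoTg mice held both the lowest and the highest value of the 6. The log2 fold change was 0.93 (SE 0.41, 95% interval -0.019 to 1.88), with an edgeR p of 0.0538 before and 0.809 after adjustment. The highest Ghr level belonged to IL-21isoTg mouse 3, the library richest in salivary gland transcripts, and the lowest to IL-21isoTg mouse 2, the poorest in them. Salivary gland genes held 22.6%, 6.61% and 15.5% of the counts in wild-type mice 1, 2 and 3, whose Ghr levels lay close together. They held 22.3% in IL-21isoTg mouse 1, where Ghr was at 77.3 CPM. The part of salivary gland RNA in the Ghr levels was not tested. Without IL-21isoTg mouse 3 the log2 fold change of Ghr was 0.44, and with the salivary gland level as a covariate it was 0.26. Without IL-21isoTg mouse 2 it was 1.30, with an edgeR p of 0.000799 before and 0.436 after adjustment.

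Insr (chr8:3122061-3279617, minus strand), the insulin receptor, was at 43.7, 72.9 and 71.5 CPM in wild-type mice and at 89.5, 64.0 and 97.6 CPM in IL-21isoTg mice. IL-21isoTg mouse 2 fell among the wild-type values, so the genotypes overlapped, and wild-type mouse 1 lay below all others. The log2 fold change was 0.42 (SE 0.25, 95% interval -0.16 to 0.99; edgeR adjusted p = 0.809). Igf1r (chr7:67952827-68233668, plus strand), the IGF1 receptor, was at 48.8, 63.2 and 60.0 CPM in wild-type mice and at 61.2, 49.3 and 76.6 CPM in IL-21isoTg mice. It was the steadiest gene of the axis, with a highest level 1.57 times the lowest and a fitted biological coefficient of variation of 0.210, against a median of 0.283 over all genes tested. Its log2 fold change of 0.12 (SE 0.20) had a 95% interval of -0.34 to 0.58, which as a fold runs from 0.790 to 1.49. All 3 receptors were highest in IL-21isoTg mouse 3, and within IL-21isoTg mice all 3 were lowest in mouse 2.

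The balance of the 2 receptors for insulin-like ligands was read as the ratio of Igf1r to Insr, each per kb of exon, within each mouse. The ratio was 0.913, 0.710 and 0.687 in wild-type mice 1, 2 and 3 and 0.559, 0.631 and 0.643 in IL-21isoTg mice 1, 2 and 3. Every IL-21isoTg mouse lay below every wild-type mouse, and Insr exceeded Igf1r per length in each. The means were 0.770 ± 0.125 and 0.611 ± 0.0452 (SD, n = 3 per genotype). The exact permutation test on the log2 ratio gave p = 0.1, the smallest possible here, and 0.3 after Benjamini-Hochberg adjustment over the 3 ratios computed. The ratios of Igfbp5 to Igfbp2 and of Igfbp5 to Igf1r were also computed, and the genotypes overlapped in both. By level, 12.1% of all genes tested did not overlap between the genotypes. The ratio was chosen with the levels of both genes known, and with 3 mice per genotype this test could not have passed 0.05.

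Among the binding proteins, Igfbp5 (chr1:72857932-72874884, minus strand) had the largest fitted variation between mice, while the ratio of highest to lowest mouse was 5.62 for Igfbp5 and 5.76 for Igfbp6. It was measured at 642, 2598 and 2194 CPM in wild-type mice 1, 2 and 3 and at 2010, 3607 and 1305 CPM in IL-21isoTg mice 1, 2 and 3. Wild-type mouse 1 lay far below the rest, IL-21isoTg mouse 2 lay above them, and the genotypes overlapped widely. The coefficient of variation fitted by edgeR was 0.472, above that of 83.7% of genes tested. The counts behind these levels were 13992 to 96908 reads, so counting error was a small part of the spread. The log2 fold change of 0.35 (SE 0.56) had a 95% interval of -0.94 to 1.63, and a fold from 0.523 to 3.10 cannot be told from no change in these mice. The sign of the difference changed to -0.049 without wild-type mouse 1 and to -0.13 without IL-21isoTg mouse 2.

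Igfbp6 (chr15:102144362-102149511, plus strand), which prefers IGF2 over IGF1, followed a related order. Its levels were 14.1, 55.7 and 35.9 CPM in wild-type mice and 73.0, 81.3 and 45.9 CPM in IL-21isoTg mice. The IL-21isoTg mice were higher except that mouse 3 lay below wild-type mouse 2. The log2 fold change was 0.92 (SE 0.45, 95% interval -0.12 to 1.96), the edgeR p was 0.0746 before and 0.809 after adjustment, and leaving out 1 mouse moved the log2 fold change between 0.55 and 1.42. Igfbp7 (chr5:77349240-77408041, minus strand), a vessel-associated member that binds IGFs weakly, was at 87.8, 130 and 96.7 CPM in wild-type mice and at 241, 163 and 99.5 CPM in IL-21isoTg mice. IL-21isoTg mice 1 and 2 lay above all wild-type mice, while mouse 3 fell within them. The log2 fold change was 0.68 (SE 0.32, 95% interval -0.053 to 1.41; edgeR adjusted p = 0.809). Igfbp7 shares 85 bases, 7.03% of its exon length, with an exon of Polr2b on the opposite strand, and whether counting used strand is not given in the sources used here. Polr2b was at 45.4, 50.8 and 43.1 CPM in wild-type mice and at 35.4, 38.8 and 33.8 CPM in IL-21isoTg mice. Its fitted difference thus ran opposite to that of Igfbp7 (log2 fold change -0.37, SE 0.15). The part of Polr2b reads in the Igfbp7 levels was not tested.

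Igfbp4 (chr11:99041244-99054392, plus strand), an inhibitory binding protein that PAPP-A cleaves, was at 68.7, 96.1 and 80.4 CPM in wild-type mice and at 141, 113 and 83.6 CPM in IL-21isoTg mice. Only IL-21isoTg mouse 3 fell into the wild-type range. The log2 fold change was 0.46 (SE 0.23, 95% interval -0.057 to 0.99; edgeR adjusted p = 0.809). Igfbp2 (chr1:72824503-72852474, plus strand), another inhibitor of IGF action, was at 53.5, 23.5 and 37.4 CPM in wild-type mice and at 46.1, 88.8 and 38.3 CPM in IL-21isoTg mice. Its highest value came from IL-21isoTg mouse 2 alone, and the log2 fold change was 0.60 (SE 0.38) with all mice, 0.15 without that mouse and 0.93 without wild-type mouse 1. Igfbp3 (chr11:7206086-7213923, minus strand), the main IGF carrier in serum, showed the smallest difference, with 113, 86.5 and 67.0 CPM in wild-type mice and 117, 79.3 and 78.7 CPM in IL-21isoTg mice. The 2 sets of values lay over each other, and the log2 fold change was 0.049 (SE 0.24, 95% interval -0.52 to 0.61). Igfbp2 and Igfbp5 are neighbours on chromosome 1, with their 3′ ends facing each other 5457 bases apart. Both were highest in IL-21isoTg mouse 2, but Igfbp2 was lowest in wild-type mouse 2, where Igfbp5 was the second highest of the 6.

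**Figure D2:**
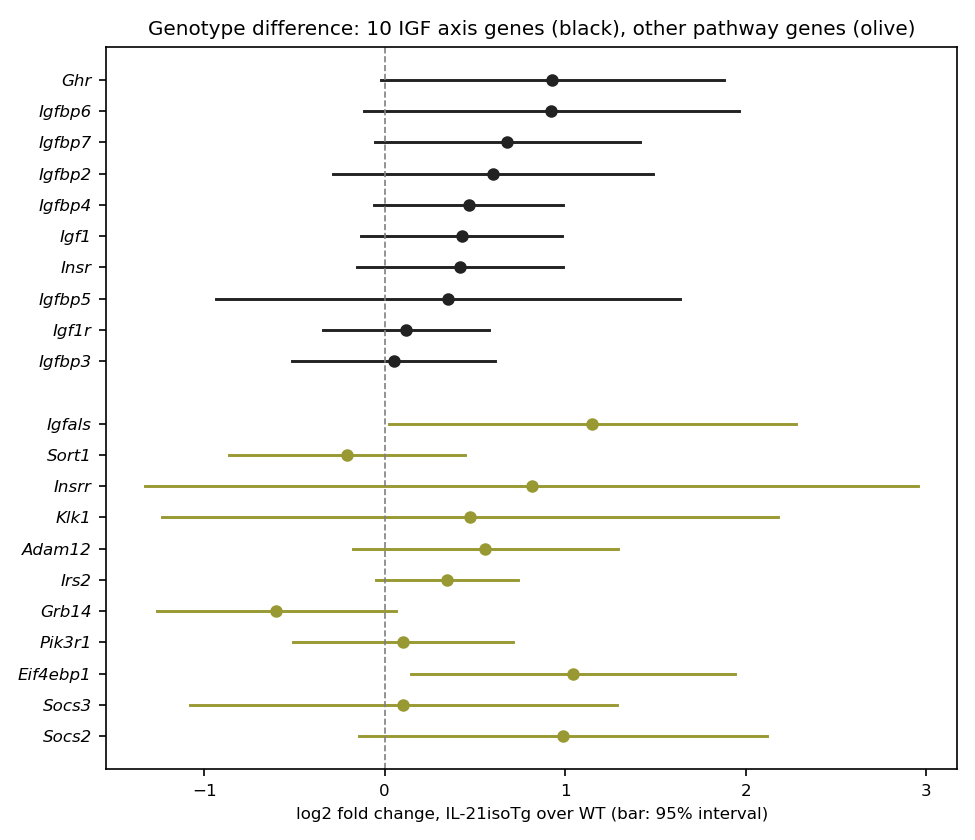
Fitted log2 fold change of IL-21isoTg over wild-type mice (x axis) with its 95% interval for the 10 genes of the axis (black) and for 11 other genes of the pathway chosen by rule (olive), from edgeR's quasi-likelihood fit with n = 3 mice per genotype. The 10 black points lie between 0.049 and 0.93 and each interval includes 0.

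The 6 binding proteins were also set against each other within each mouse. Their summed level was 273, 652 and 537 CPM per kb in wild-type mice 1, 2 and 3 and 694, 908 and 406 CPM per kb in IL-21isoTg mice 1, 2 and 3, which overlapped. Igfbp5 made up 39.2% to 68.0% of this sum, with the smallest share in wild-type mouse 1. The share of Igfbp6 was 4.66%, 7.68% and 6.01% in wild-type mice and 9.46%, 8.05% and 10.2% in IL-21isoTg mice. It was the 1 share of the 6 whose genotypes did not overlap, with means of 6.12% ± 1.52 and 9.23% ± 1.08 (SD, n = 3 per genotype), given as a description without a test. By level, 12.1% of all genes tested did not overlap between the genotypes, so 1 share of 6 does not stand out. The shares of a mouse also depend on each other, as they add up to a whole. In wild-type mouse 1 Igfbp2 and Igfbp3 took their largest shares, 10.6% and 13.2%, while the levels of Igfbp5 and Igfbp6 were at their lowest.

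**Figure D3:**
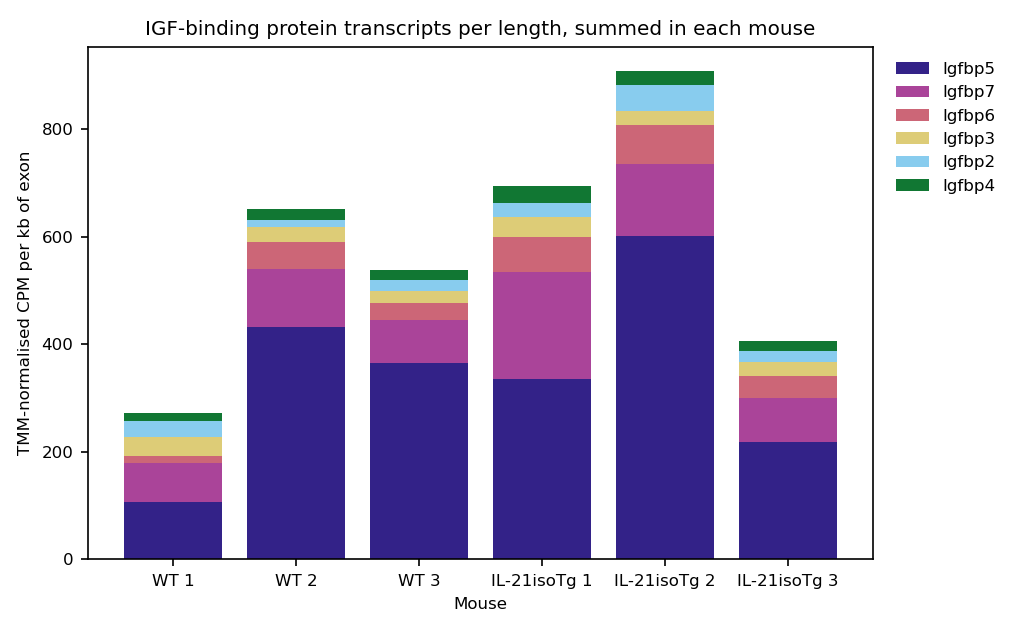
Stacked TMM-normalised CPM per kb of exon (y axis, from 0) of the 6 binding protein genes in each of the 6 mice. Igfbp5 is the largest segment in every mouse, and the bars range from 273 CPM per kb in wild-type mouse 1 to 908 in IL-21isoTg mouse 2.

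The mice differed in which genes of the axis stood highest and lowest in them. Wild-type mouse 1 was the lowest of the 6 mice for 7 of the 10 genes, Igf1, Igf1r, Insr, Igfbp4, Igfbp5, Igfbp6 and Igfbp7. The highest level of each of the 10 genes came from an IL-21isoTg mouse, but not from the same one. Mouse 1 was highest for Igf1, Igfbp3, Igfbp4 and Igfbp7, mouse 2 for Igfbp2, Igfbp5 and Igfbp6, and mouse 3 for the 3 receptors. Wild-type mouse 1 also had the lowest fibroblast marker sum, 1989 CPM, and IL-21isoTg mouse 1 the highest, 5143 CPM. IL-21isoTg mouse 1 had the highest endothelial sum, 346 CPM over 8 markers against 94.7 to 292 CPM in the others, and the highest adipocyte sum, 388 CPM against 69.5 to 167 CPM. Of the endothelial markers 8 of 8 had a higher fitted level in IL-21isoTg mice, as did 5 of 5 adipocyte markers tested and 8 of 9 basal markers, while 6 of 12 luminal markers did. For pericyte markers the number was 6 of 7, for macrophage markers 3 of 7 and for T and B cell markers 4 of 7. No listed marker was at 0 in all mice. The part of these cells in the levels of the axis was not tested.

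**Figure D4:**
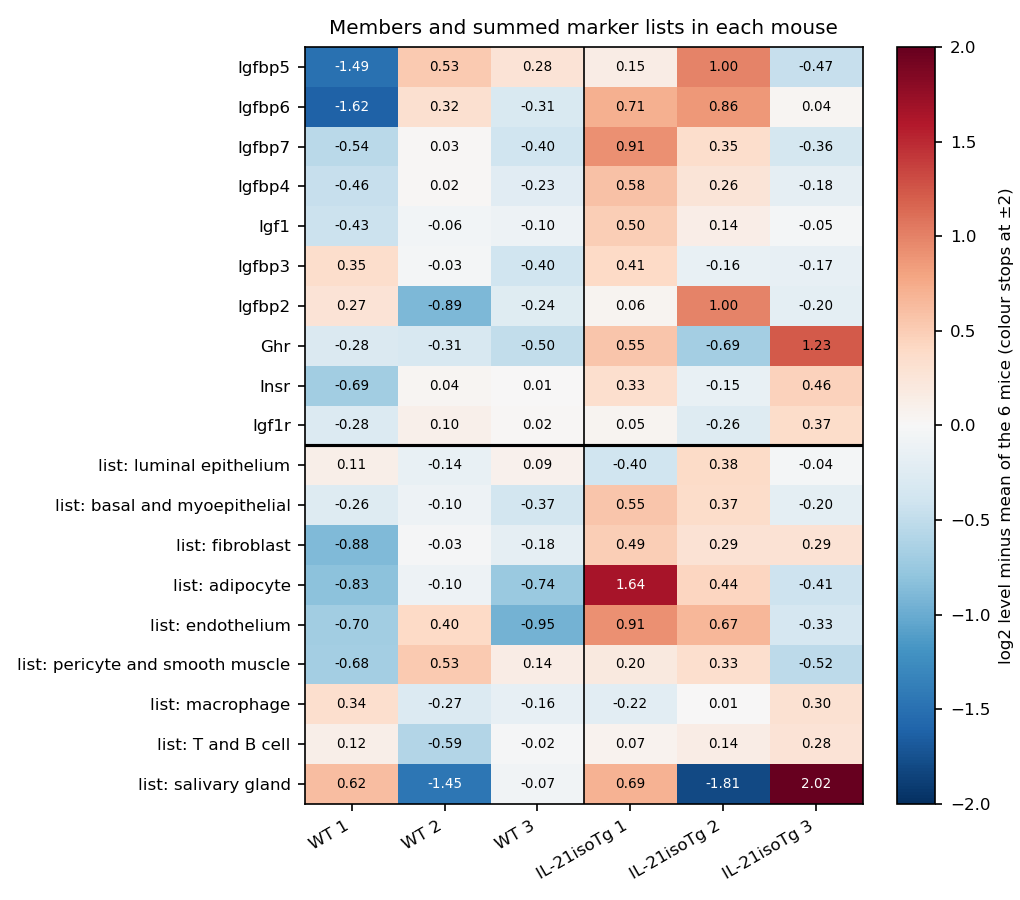
Log2 level of each gene of the axis (upper rows) and log2 of summed cell type marker lists (lower rows) in each mouse, minus the mean of the 6 mice, with colour from blue (below) to red (above). Among the rows of the axis genes, the column of wild-type mouse 1 is bluest for Igfbp6 (-1.62) and Igfbp5 (-1.49), and the salivary gland row runs from -1.81 in IL-21isoTg mouse 2 to 2.02 in IL-21isoTg mouse 3.

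The genes most alike to each gene of the axis but Igfbp3 were found by Pearson's r of log2 levels over the 6 mice, among genes with a mean of at least 10 CPM, as a description over 6 points that mix both genotypes. For Igf1 these were Pxmp4 (r = 0.997) and Slc43a3 (r = 0.990). Igfbp7 was matched by Cxcl12, a stromal chemokine (r = 0.996), and Apcdd1 (r = 0.995), and Apcdd1 also led for Igfbp4 (r = 0.992) before Rbpms (r = 0.990). Igfbp6 was matched by Timp2, an inhibitor of matrix metalloproteinases, and Cd34, a surface protein of vessels and stromal progenitors (both r = 0.995). Igfbp5 was matched by Acsbg1 (r = 0.997) and Papln (r = 0.995), and Igfbp2 by Ddx54 and Ccni (both r = 0.976). Among the receptors, Ghr was matched by Gne (r = 0.997) and Adi1 (r = 0.993), Igf1r by Trim2 (r = 0.993) and Rbl2 (r = 0.992), and Insr by Nat9 (r = 0.996) and Camk2d (r = 0.984). With 9613 candidates and 6 mice, values of this size say little of any one gene.

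The rest of the pathway was read from 6 lists holding 57 other genes, of which 49 passed the filter on low counts. None of the 49 was called by edgeR at an adjusted p under 0.05. A higher fitted level in IL-21isoTg mice was found for 30 and a lower one for 19, with a median log2 fold change of 0.048, against -0.019 over all genes. At an unadjusted edgeR p under 0.05 stood 3 of 49 (Igfals, Eif4ebp1 and Cish), a share near the 5.82% of all genes. The genotypes did not overlap for 3 of 49, Irs2 and Sirpa with IL-21isoTg mice higher and Foxo1 with them lower, against 12.1% of all genes.

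Of the ligands and carriers, Igfals alone was tested. It encodes the acid-labile subunit, which joins IGF and IGFBP3 in the serum complex, and was at 6.81, 5.91 and 6.97 CPM in wild-type and 20.2, 18.7 and 4.48 CPM in IL-21isoTg mice. IL-21isoTg mice 1 and 2 were high and mouse 3 was the lowest of the 6, so the genotypes overlapped (log2 fold change 1.15, SE 0.49, edgeR adjusted p = 0.809). Without IL-21isoTg mouse 3 the log2 fold change of Igfals was 1.58, with an edgeR p of 0.000163 before and 0.169 after adjustment. Igf2, the ligand of fetal growth, had 0, 9, 0, 21, 1 and 0 reads in the 6 mice, below the filter. Growth hormone itself, Gh, and Igfbp1 had 0 reads in every mouse, where 3 reads corresponded to 0.112 to 0.280 CPM. The antisense gene Igf1os, which lies across Igf1, also had 0 reads in every mouse.

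Among the other receptors the most abundant was Sort1, a sorting receptor, with a log2 fold change of -0.21 (SE 0.28), and Insrr, the insulin receptor-related receptor, was near the floor at 0.0900 to 1.54 CPM. Of 7 genes for proteases that cleave binding proteins and for their inhibitors, 5 had a higher and 2 a lower fitted level. Klk1, a kallikrein that is abundant in salivary gland, ranged from 387 CPM in IL-21isoTg mouse 2 to 3746 CPM in IL-21isoTg mouse 3, the poorest and the richest library in salivary gland transcripts. Adam12, a protease of IGFBP3 and IGFBP5, ranged from 4.61 to 10.6 CPM, and its log2 fold change was 0.56 (SE 0.32).

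Receptor adaptors split 5 higher and 4 lower. Irs2, which links both receptors to PI3K, was at 121, 90.0 and 121 CPM in wild-type and 148, 134 and 140 CPM in IL-21isoTg mice. The genotypes did not overlap, but the log2 fold change of 0.35 (SE 0.17) did not pass the edgeR test (adjusted p = 0.809). Grb14, an inhibitor of the insulin receptor, had a log2 fold change of -0.60 (SE 0.29). The 19 genes of PI3K, AKT and mTOR signalling were divided evenly, 10 higher and 9 lower, with a median log2 fold change of 0.0051. Pik3r1, the regulatory subunit of PI3K, differed by 0.099 (SE 0.26) on the log2 scale. Eif4ebp1, a translation repressor under mTOR, was at 52.7, 27.4 and 42.4 CPM in wild-type and 97.5, 41.1 and 114 CPM in IL-21isoTg mice, overlapping through IL-21isoTg mouse 2 (log2 fold change 1.04, SE 0.39, edgeR adjusted p = 0.809). With the salivary gland level as a covariate the log2 fold change of Eif4ebp1 was 0.51.

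Growth hormone receptor signalling held 7 genes with a higher and 3 with a lower fitted level. Its feedback inhibitors Cish and Socs2 are known STAT5 targets. Cish was at 99.8, 56.0 and 71.8 CPM in wild-type and 97.9, 106 and 156 CPM in IL-21isoTg mice, and Socs2 was at 69.2, 28.5 and 38.7 CPM in wild-type and 64.8, 47.3 and 159 CPM in IL-21isoTg mice. Both were highest in IL-21isoTg mouse 3, as Ghr was, and overlapped through wild-type mouse 1. Their log2 fold changes were 0.66 (SE 0.27) and 0.99 (SE 0.49), each with an edgeR adjusted p of 0.809. Without IL-21isoTg mouse 3 the log2 fold change of Socs2 was 0.31, and without wild-type mouse 1 it was 1.44. With the salivary gland level as a covariate it was 0.41 for Socs2 and 0.49 for Cish. The part of salivary gland RNA in these levels was not tested. Socs3, the most abundant gene of this list, differed by 0.10 (SE 0.51) on the log2 scale.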

How the data were processed

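Gene counts per mouse were deposited by the authors without normalisation, together with a signal table in which the authors divided each count by 1 size factor per mouse. That table matched the counts divided by constants (largest relative difference 4.94e-10 over 31376 genes) and was used for this check only. A table of the authors' own genotype comparison (fold changes, p-values) was not used. The submitters' processing notes name FastQC 0.11.7, Trimmomatic 0.38, HISAT2 2.1.0, SAMtools 1.9, featureCounts 1.6.3, DESeq2 1.24.0 and build mm10. The gene annotation and strand setting of the counting are not given in the sources used here.

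Genes were filtered with filterByExpr (minimum count 10, minimum total count 15), normalised with TMM and compared with edgeR 4.0.16 (quasi-likelihood, robust, genotype as the only term) in R 4.3.3, with Benjamini-Hochberg adjustment over 17165 genes and a threshold of 0.05. The scripts were tested on simulated data. Levels per kb used GENCODE M21 exon lengths (GRCm38), which held 55141 of the 55487 gene identifiers. Log2 levels used a pseudocount of 0.5. DESeq2 1.42.0 and limma 3.58.1 served as alternatives. Floors of 3 counts and counting errors cover counting error only.

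Named genes were the 10 genes of the axis, the most abundant and the most changed gene of each pathway list, and the 2 genes most alike to each gene of the axis, except that those of Igfbp3 are not reported here. Cish, Sirpa and Foxo1 were named after their values were seen, as were Igf2, Gh, Igfbp1, Polr2b and Igf1os. The genes and lists were chosen with earlier results of these data known. Each library is 1 mouse, and the labels do not say whether mice shared a litter.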

Additional observations from a re-analysis of the deposited data

How the results depend on the processing

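None of the 10 genes of the axis was called under any of the 16 alternatives. The alternatives were run for 23 genes, the 10 of the axis, 11 of the pathway lists, Cish and Il21. Their log2 fold change changed sign in 13 of 365 alternative values and passed the threshold in none. Over all genes, the count called was 0 with edgeR's quasi-likelihood test, 14 without a filter on low counts, 81 with DESeq2, 65 with edgeR's likelihood ratio test, and 0 to 6 when 1 mouse was left out (6 without wild-type mouse 3). The cause was not tested. With the salivary gland level as a covariate, added after seeing the data, the log2 fold change was -0.025 for Igf1r, -0.0077 for Igfbp3 and -0.86 for Klk1. Leaving out 1 mouse moved Igf1r between -0.044 and 0.26, Igfbp3 between -0.17 and 0.27, Igfbp5 between -0.13 and 0.70, Klk1 between -0.68 and 0.95, Sort1 between -0.45 and 0.041, Pik3r1 between -0.13 and 0.25, and Socs3 between -0.29 and 0.47. The sign changed without wild-type mouse 1 for Igfbp5, Pik3r1 and Socs3, without wild-type mouse 2 for Sort1, without wild-type mouse 3 for Igfbp3, without IL-21isoTg mouse 1 for Igfbp3 and Socs3, without IL-21isoTg mouse 2 for Igfbp5, and without IL-21isoTg mouse 3 for Igf1r and Klk1. Deviations of same-numbered mice from their genotype mean correlated over all genes tested at -0.26, 0.096 and -0.056. These 3 values cannot show whether same-numbered mice shared a litter or a preparation. With the replicate number as a block, 0 genes were called over all genes and 0 of the 10, and the log2 fold change of Igfbp6 was 1.07. Sample number limits these comparisons: 3 mice per genotype left 95% intervals of Igfbp5 and Ghr wide, and the lowest count of any gene of the axis was 98 reads.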

Other observations

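Several other genes of the pathway shared the low value of wild-type mouse 1 that Igfbp5 and Igfbp6 showed. They were picked after their values were seen and carry no test. Stc2, which encodes a stanniocalcin that inhibits PAPP-A, was at 97.3 CPM in wild-type mouse 1, at 748 and 646 CPM in wild-type mice 2 and 3, and at 417, 535 and 284 CPM in IL-21isoTg mice. Irs1, an adaptor of both receptors, was at 13.1 CPM in wild-type mouse 1 and 19.2 CPM in IL-21isoTg mouse 3, and at 58.5 to 63.9 CPM in the other 4 mice. Socs3, a feedback inhibitor of cytokine receptors, was at 167 CPM in wild-type mouse 1 and at 322 to 748 CPM in the others. Other genes of the pathway lists went the opposite way in this mouse. Wild-type mouse 1 was the highest of all mice for Gab1, Pik3ca, Pik3cb, Rheb, Rps6kb1, Foxo1, Foxo3 and Socs1.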
